A study of Mus musculus with 6 samples.

Results

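The 40 genes described here are type I interferon-stimulated genes, read by symbol from a deposited table of 49315 genes, in which each of the 40 symbols matched 1 row. They were measured by bulk RNA sequencing of CD8+ T cells that had been sorted from the tumor-draining lymph nodes of wild-type female C57Bl6/J mice. Every mouse carried B16F10, a transplantable mouse melanoma (the sample labels write B26F10), and had been given a single subcutaneous dose of HCW9218, which the series title describes as a TGF-βRII/IL-15 complex. The monotherapy group (3 mice) received HCW9218 alone and the combination group (3 mice) received HCW9218 with anti PD1 into the peritoneum. Treatment was given at a tumor volume of 50 to 100 mm3 and nodes were taken on day 5. Neither the age of the mice nor the antibody clone is given by the labels, and all values are relative to HCW9218 alone, since no untreated group was used here. The comparison asks how the transcript levels of these genes differ when the PD1 antibody is added.

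Type I interferons bind a receptor built from IFNAR1 and IFNAR2, whose kinases JAK1 and TYK2 phosphorylate STAT transcription factors. These join IRF9 to form the complex ISGF3, which binds the interferon-stimulated response element (ISRE) in the promoters of its target genes. The targets encode sensors of foreign nucleic acid, proteins that block viral replication, and feedback regulators such as the ISG15 protease USP18. In T cells type I interferon is known to shape priming, expansion and survival, and tonic interferon signals keep many of these genes expressed without infection.

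Promoters of the members are shown first, because the ISRE is the sequence through which ISGF3 acts. RefSeq promoters (GRCm38.p6, 250 bases before to 50 bases after the annotated start) were found for 31 of the 40 members. The ISRE core was searched on both strands as GAAA, any 2 bases and GAAA, and 17 of the 31 genes (54.8%) held at least 1 match, against 3.99% of 27025 genes with a promoter. The interferon-gamma-activated site, searched as TTCNNNGAA, which is its own reverse complement, was in 5 of 31 (16.1%), against 9.55%, and in 1 member promoter a match overlapped an ISRE match. In the stretches printed here, which end at the base before the RefSeq start, ISRE core matches on either strand are in capitals. Isg15 has 3 overlapping matches, with first bases at -78, -72 and -66 from the start, Ifit1 has 2 at -104 and -85, Ifit3 has 2 at -156 and -122, Rsad2 has 1 at -120 and Ddx60 has 2 at -53 and -19. Oasl1 is shown as a member without a match in its window.
Isg15 (chr4:156200819-156200978, minus strand): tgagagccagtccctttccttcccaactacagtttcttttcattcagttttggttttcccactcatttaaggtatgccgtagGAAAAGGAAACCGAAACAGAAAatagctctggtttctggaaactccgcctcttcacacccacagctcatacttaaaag
Ifit1 (chr19:34640729-34640888, plus strand): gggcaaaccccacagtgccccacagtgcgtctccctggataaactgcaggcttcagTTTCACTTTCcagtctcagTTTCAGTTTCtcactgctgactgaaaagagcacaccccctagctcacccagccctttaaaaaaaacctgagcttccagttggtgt
Ifit3 (chr19:34583369-34583528, plus strand): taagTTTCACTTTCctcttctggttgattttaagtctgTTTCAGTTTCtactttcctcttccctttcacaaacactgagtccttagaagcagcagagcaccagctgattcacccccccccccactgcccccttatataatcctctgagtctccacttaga
Rsad2 (chr12:26456453-26456612, minus strand): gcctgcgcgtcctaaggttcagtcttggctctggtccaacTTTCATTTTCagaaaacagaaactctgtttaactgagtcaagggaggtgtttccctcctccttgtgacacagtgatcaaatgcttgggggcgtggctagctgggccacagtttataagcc
Ddx60 (chr8:61927927-61928086, plus strand): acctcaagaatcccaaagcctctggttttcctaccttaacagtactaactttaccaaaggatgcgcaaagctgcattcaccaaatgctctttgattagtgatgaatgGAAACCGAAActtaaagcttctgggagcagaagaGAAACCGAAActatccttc
Oasl1 (chr5:114923080-114923239, plus strand): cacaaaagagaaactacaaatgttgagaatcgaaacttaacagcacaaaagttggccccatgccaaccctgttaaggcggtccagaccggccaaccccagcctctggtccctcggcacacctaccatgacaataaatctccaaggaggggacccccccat
The median log2 fold change of combination over monotherapy was -0.36 in the 17 members with a match and -0.23 in the 14 without. Of these, 14 and 12 lay below 0. The ranges overlapped, from -0.76 to 0.09 with a match and from -0.91 to 0.06 without. The difference between these sets was not tested. The stretch before the start of Dtx3l lies inside Parp9, a gene on the opposite strand, and is not printed.

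Library totals ran from 34568074 to 40101346 counts. CD8 T cell markers were high in all 6 libraries, with a summed level of 4237 to 5718 CPM (a count scaled to library size with TMM factors) over 6 genes. Summed levels of 4 marker lists of other cells did not overlap between groups. Those of CD4 T cells, B cells, conventional dendritic cells, macrophages and monocytes, neutrophils, and stroma and endothelium did. Of all single genes tested, 7.54% had separate groups with the combination lower and 7.17% with it higher. The 3 natural killer markers were at 5.54 to 7.21 CPM in monotherapy and 10.7 to 19.0 CPM in the combination. Of these, Klre1 was higher in the combination (log2 fold change 1.65 ± 0.25, SE, with an edgeR adjusted p of 0.0161). The defining marker Ncr1 was at 0.226 ± 0.159 and 0.200 ± 0.0818 CPM (SD, n = 3 each). Klrb1c was at 1.99 ± 0.344 and 2.88 ± 0.863 CPM, with overlapping groups and a log2 fold change of 0.54 ± 0.30 (SE). The 4 plasmacytoid dendritic cell markers were at 51.8 to 68.0 and 43.6 to 49.7 CPM, nearly all of it Pacsin1, and the 4 red blood cell markers were at 1.71 to 6.75 and 0.553 to 1.64 CPM. Among conventional dendritic cell markers, Itgax was at 3.44 ± 0.395 and 6.57 ± 1.33 CPM with separate groups (edgeR adjusted p = 0.114). Xcr1 was separate too, at 1.83 ± 0.236 and 2.52 ± 0.215 CPM. Zbtb46 and Flt3 overlapped, with log2 fold changes of 0.10 and 0.18, and Clec9a and Cd209a were at most 0.569 CPM in any library. The summed level of this list overlapped between groups, at 7.041 to 10.1735 CPM in monotherapy and 10.1694 to 13.253 CPM in the combination. The part of these cells in the difference between groups was not tested. The fourth list was that of melanocytes. The melanocyte genes Dct and Tyrp1 had 301 and 281 counts in combination replicate 2 and 377 and 366 in combination replicate 3, and 0 or 1 in the other 4 libraries. The summed level of the 5 melanocyte markers was 39.9 and 51.9 CPM in those 2 libraries and 20.9 to 29.0 CPM in the others. In the others nearly all of it was Pmel, which was at 20.9 to 29.8 CPM over the 6 libraries, with overlapping groups (log2 fold change 0.18 ± 0.16, SE). The 4 neutrophil markers had 95 counts in monotherapy replicate 3 and 0 or 1 elsewhere. The summed level of 9 mitochondrial transcripts was 15134 CPM in combination replicate 3 and 24375 to 34844 CPM in the other 5.

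All 40 members passed the filter on low counts, and 35 of them had lower estimates in the combination group, but none passed the test. In edgeR's quasi-likelihood test with Benjamini-Hochberg adjustment over 15142 genes, 0 of 40 members were called lower and 0 higher at an adjusted p under 0.05. Over all genes tested, 0.132% were called lower and 0.951% higher. At an unadjusted p under 0.05, 9 members were lower and 0 higher, where the background was 3.39% lower and 4.61% higher. DESeq2 called 2 members lower, Ddx60 and Isg20, with a background of 0.492%, and limma-voom called 0 (background 0.0925%). With no filter on low counts edgeR called 8 lower (background 0.347%), and 17 were lower at an unadjusted p under 0.05 (background 2.39%). The median log2 fold change of the members was -0.28, with quartiles of -0.45 and -0.10, beside a median of -6e-04 over all genes, of which 50.1% lay below 0. Estimates ran from -0.91 for Ifi44 to 0.09 for Phf11b. In bulk samples a smaller share of cells with an interferon response and less of each transcript per cell cannot be told apart.

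**Figure D1:**
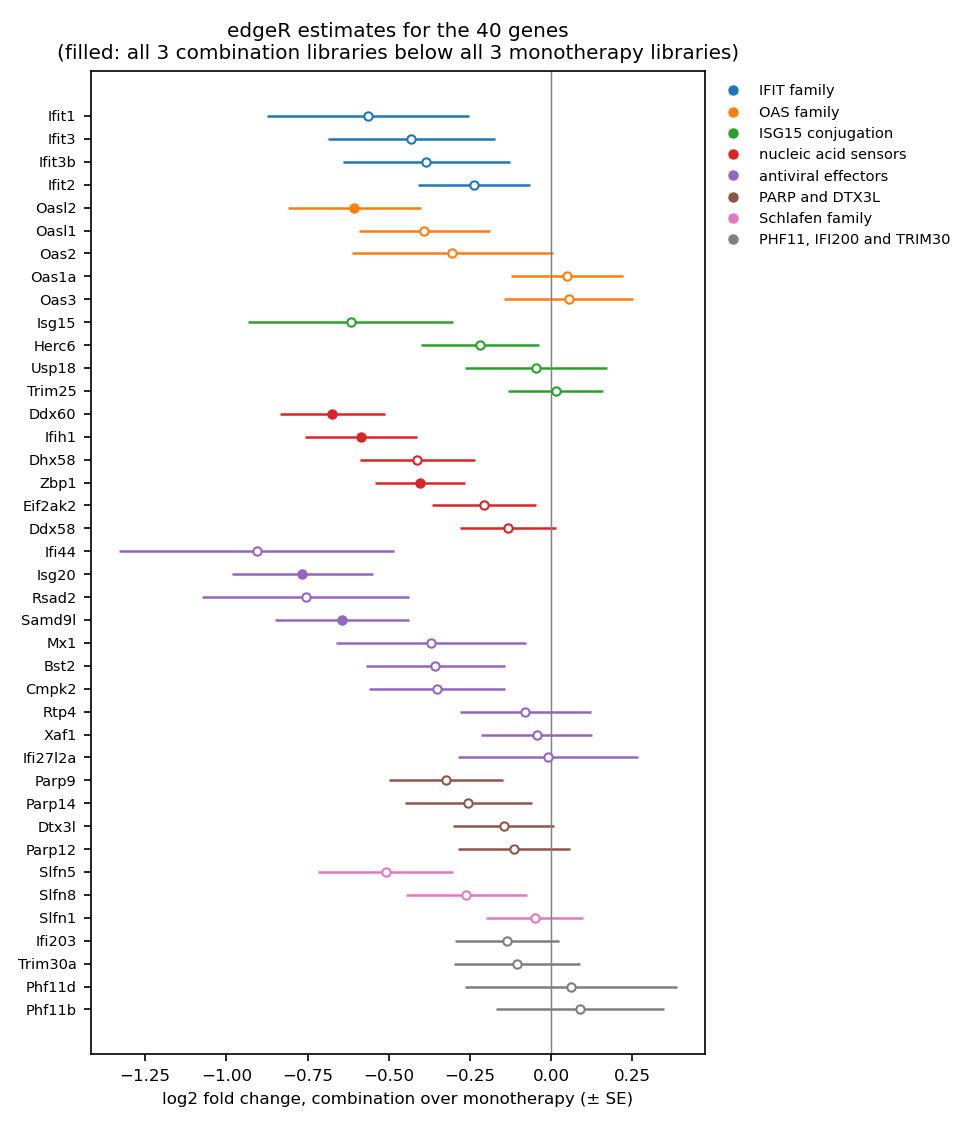
Log2 fold change of combination over monotherapy (x axis, edgeR estimate with its SE) for each of the 40 genes, grouped and coloured by role. Of the 40 estimates 35 lie below 0, and the 6 filled points are the genes whose 3 combination libraries all lie below the 3 monotherapy libraries.

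The spread between libraries of a group was as large as the difference between groups, and it was shared by most members. The log2 CPM of each member was centred on its mean over the 6 libraries. The median of these deviations over the 40 genes was 0.30, -0.22 and 0.29 in monotherapy replicates 1, 2 and 3, and -0.21, 0.02 and -0.25 in combination replicates 1, 2 and 3. Monotherapy replicate 2 thus lay at the level of combination replicates 1 and 3, and combination replicate 2 lay between them and the other monotherapy libraries. Over all genes tested the corresponding medians ran from -0.0043 to 0.0214.

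Monotherapy replicate 2 was the lowest of its group for 38 of the 40 genes and the highest for 0. The highest of that group was replicate 1 for 18 genes and replicate 3 for 22. Monotherapy replicates 1 and 3 lay above all 3 combination libraries for 28 and 30 genes (70% and 75%, against 21.7% and 21.3% of all genes tested). Monotherapy replicate 2 did so for 6 genes (15%, against 21.4%) and lay below all 3 combination libraries for another 6 (15%, against 17.1%). In the combination group, replicate 2 was highest for 23 genes, and replicates 1 and 3 were lowest for 21 and 18. These ranks within each group were not counted over all genes tested. Combination replicates 1 and 3 were the lowest of all 6 libraries for 42.5% and 40% of the members, against 25.8% and 28.6% of all genes tested. The median SD of log2 CPM over the 3 monotherapy libraries was 0.30 for the members and 0.17 for all genes, and over the 3 combination libraries 0.26 and 0.30. Ifi44 varied most within monotherapy, by 3.35-fold between its highest and lowest library, and Ifi27l2a within the combination, by 2.32-fold.

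**Figure D2:**
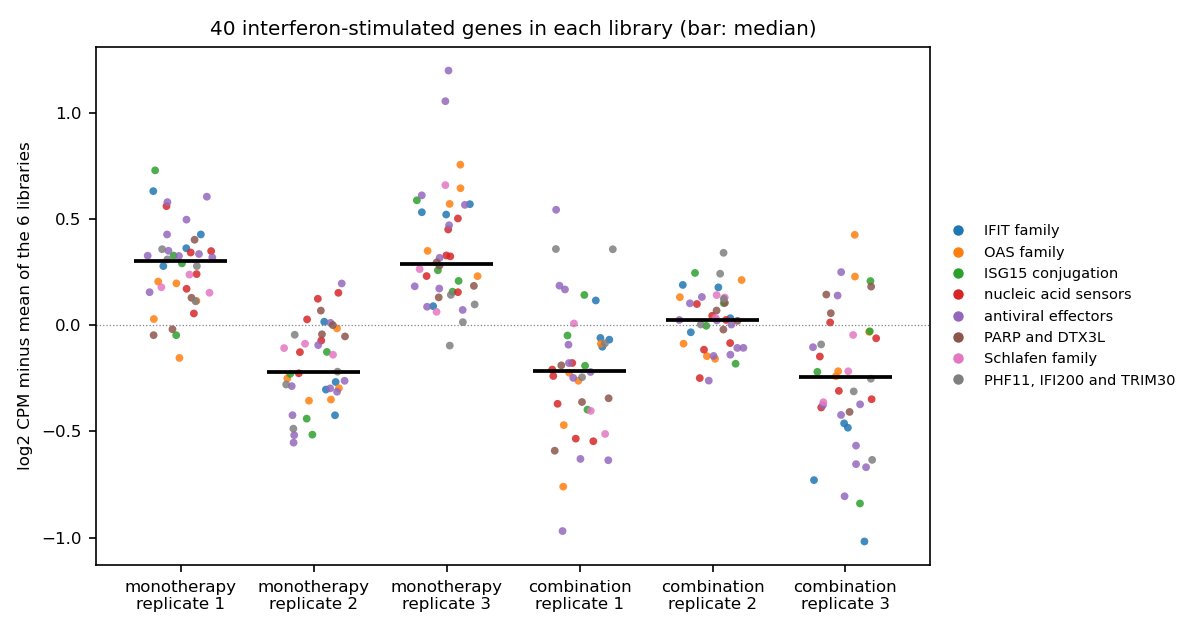
Each point is 1 of the 40 genes in 1 library, coloured by role, with its log2 CPM relative to the mean of the 6 libraries on the y axis, and the bar is the median of the 40. Monotherapy replicates 1 and 3 sit high at 0.30 and 0.29, and monotherapy replicate 2 sits at -0.22, beside combination replicates 1 and 3 at -0.21 and -0.25.

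Leaving out monotherapy replicate 2 put all 40 estimates below 0, with a median of -0.40 and 17 members lower at an unadjusted p under 0.05 (background 1.75%). That library was the lowest of its group for 38 of the 40 genes, so leaving it out was bound to lower most estimates. Without monotherapy replicate 1 or 3 the median was -0.23 or -0.17, and 4 members were lower at that threshold in each case (background 2.19% and 2.12%). Without combination replicate 1, 2 or 3, 7, 9 and 10 members were lower at that threshold (background 4.07%, 2.4% and 7.19%). In edgeR 0 members passed the adjusted threshold in any of the 6 fits that left out 1 library, where the background was 0.0252%, 0.0318% and 0.0128% without monotherapy replicate 1, 2 or 3, and 0.177%, 0.0256% and 0.314% without combination replicate 1, 2 or 3. Without both combination libraries that held Dct and Tyrp1, 5 members were called lower (background 3.77%) and 16 were lower at an unadjusted p under 0.05 (background 11.9%), with 1 combination library left. Monotherapy replicate 3 also held the neutrophil counts given above, 423 counts of the macrophage gene Lyz2 (58 to 183 in the other libraries) and 38 counts of Siglech, a marker of interferon-producing plasmacytoid dendritic cells (2 to 11 in the others). Monotherapy replicate 1, which was as high in the members, had 0 neutrophil marker counts, 90 of Lyz2 and 3 of Siglech. Csf1r, also a macrophage marker, was highest in monotherapy replicate 3 too, at 83 counts, as were C1qa, C1qb, Adgre1 and Klk1 at 4 to 14 counts. Cd68, Pacsin1 and Cox6a2 of the same lists were not. Cd68 was at 7.40 CPM there and 9.94 CPM in combination replicate 3. Pacsin1 was at 62.7 CPM there and 67.6 CPM in monotherapy replicate 2, and Cox6a2 had its fewest counts there, 4. The part of these cells in the spread of the members was not tested.

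Sensors of nucleic acid held 3 of the 6 members whose groups did not overlap. Over all genes tested, 7.54% had all 3 combination libraries below all 3 monotherapy libraries, against 6 of 40 members, and 7.17% had them above, against 0 of 40. Ddx60 (chromosome 8, 61928087 to 62038244, GRCm38), a helicase linked to RIG-I signalling, was at 87.2, 64.5 and 74.0 CPM in monotherapy replicates 1, 2 and 3, and at 40.5, 54.6 and 46.4 CPM in combination replicates 1, 2 and 3. Its groups were separate and its log2 fold change was -0.67 ± 0.16 (SE; edgeR adjusted p = 0.121), with the smallest p of the 40. DESeq2 gave Ddx60 an adjusted p of 0.0161, and over all settings it ran from 0.00632 to 0.517.

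Ifih1 (chromosome 2, 62595798 to 62646255), which encodes the double-stranded RNA sensor MDA5, was at 36.7, 34.5 and 44.0 CPM in monotherapy and 21.4, 31.6 and 23.7 CPM in the combination. The gap between its groups was narrow, from 34.5 to 31.6 CPM, and the log2 fold change was -0.59 ± 0.17 (SE; edgeR adjusted p = 0.258). Zbp1 (chromosome 2, 173206612 to 173218923), a sensor of Z-form nucleic acid that triggers necroptosis, was at 207, 167 and 192 CPM against 141, 154 and 132 CPM, with a log2 fold change of -0.40 ± 0.14. Its groups were separate too, and its adjusted p in edgeR was 0.386. Per length Zbp1 was the highest of the 6 sensors, at a mean of 46.9 FPKM (CPM per kilobase of exon) over the 6 libraries, and Ifih1 the lowest at 3.92 FPKM.

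The other sensors overlapped between groups. Dhx58, which encodes the RIG-I regulator LGP2, was at 40.2 ± 9.42 and 30.2 ± 1.08 CPM (SD, n = 3 each), and 1 of its 3 monotherapy libraries, replicate 2 at 29.5 CPM, lay among the combination values. Ddx58, which encodes RIG-I itself, was at 188 ± 21.1 and 172 ± 20.1 CPM, and Eif2ak2, which encodes the translation-blocking kinase PKR, at 50.5 ± 7.32 and 43.8 ± 6.67 CPM. The log2 fold changes of these 3 genes were -0.41, -0.13 and -0.21.

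Among 10 antiviral effectors all 10 estimates lay below 0, and Isg20 and Samd9l had separate groups. Isg20 (chromosome 7, 78913424 to 78920396), an exonuclease that degrades RNA, was at 35.9, 24.2 and 35.6 CPM in monotherapy and 22.5, 20.02 and 13.7 CPM in the combination. Monotherapy replicate 2 was again the low library of its group, just above the highest combination library, and the log2 fold change was -0.77 ± 0.22 (SE; edgeR adjusted p = 0.223; DESeq2 adjusted p = 0.0496; 0.00142 to 0.657 over all settings). Samd9l (chromosome 6, 3372257 to 3399572), an interferon-induced inhibitor of translation and growth, was among the most abundant members, at 661, 498 and 494 CPM against 280, 441 and 336 CPM. Here monotherapy replicates 2 and 3 were alike and replicate 1 was high. Its log2 fold change was -0.64 ± 0.21 (SE; edgeR adjusted p = 0.324).

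Rsad2, which encodes the antiviral radical-SAM enzyme viperin, and Cmpk2, its neighbour 12752 bases away on chromosome 12 and on the other strand, followed the library pattern of the whole set. Rsad2 was at 14.9, 8.81 and 24.6 CPM in monotherapy and 9.96, 10.7 and 7.97 CPM in the combination. Cmpk2, a mitochondrial nucleotide kinase, was at 41.9, 27.3 and 46.6 CPM against 28.8, 36.1 and 25.9 CPM. In both genes monotherapy replicate 2 lay within the range of the combination libraries, and the log2 fold changes were -0.76 ± 0.32 and -0.35 ± 0.21 (SE). Mx1, a dynamin-like GTPase, was at 28.1 ± 10.6 and 21.8 ± 5.69 CPM (SD, n = 3 each). Ifi44 had the lowest level of the 10, at 4.11 ± 2.27 and 2.19 ± 0.686 CPM.

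Ifi27l2a, a small interferon-induced membrane protein gene, had the highest level per length of all 40 members, with a mean of 169 FPKM over the 6 libraries. It was at 94.7, 60.8 and 80.2 CPM in monotherapy and 110, 76.8 and 47.5 CPM in the combination, so the highest and lowest libraries were both in the combination group. Its log2 fold change was -0.01 ± 0.28 (SE). Bst2, which encodes tetherin, a protein that holds budding virions at the cell surface, came next at a mean of 127 FPKM and had a log2 fold change of -0.36 ± 0.21. Rtp4 and Xaf1 had log2 fold changes of -0.08 and -0.04.

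**Figure D3:**
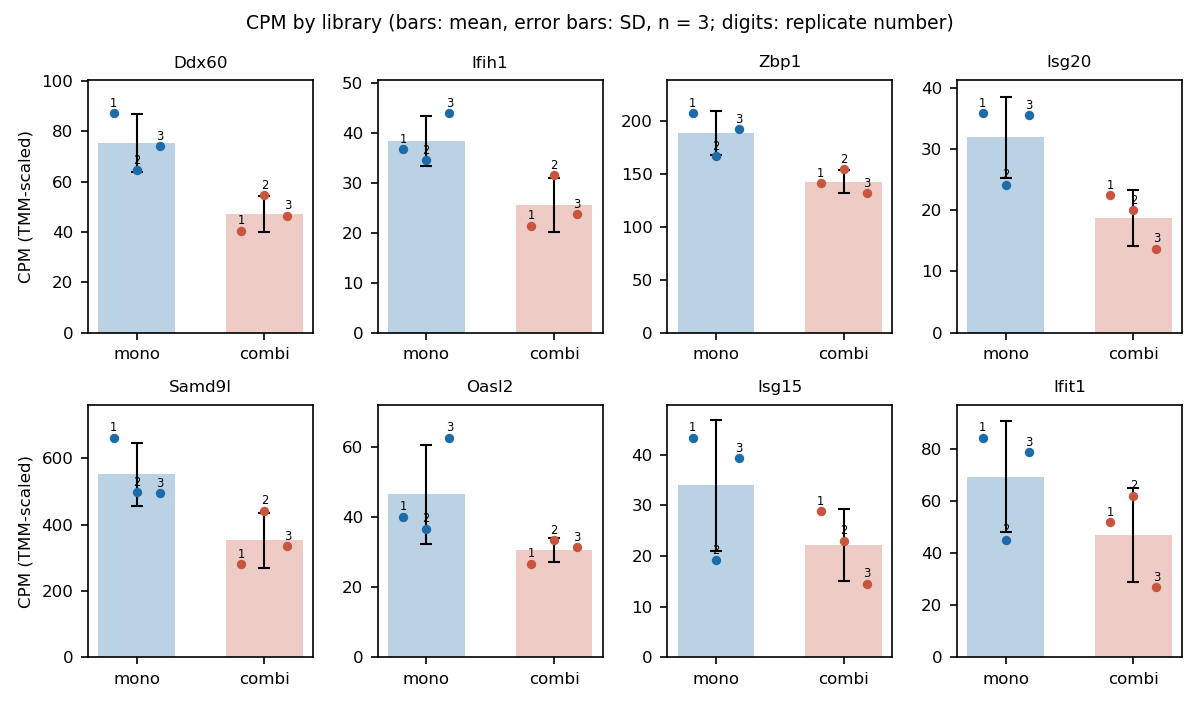
CPM of 8 members in each library, with bars for the mean and error bars for the SD of 3 libraries, and digits for the replicate number. In Ddx60, Ifih1, Zbp1, Isg20, Samd9l and Oasl2 the groups do not overlap, and in Isg15 and Ifit1 monotherapy replicate 2 lies among the combination libraries.

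The IFIT genes, whose proteins bind the foreign 5′ ends of viral RNA, lie within a single cluster on chromosome 19, and all 4 estimates were below 0 with overlapping groups. Ifit1 (34640871 to 34650009) was at 84.4, 45.2 and 78.8 CPM in monotherapy and 51.9, 62.1 and 26.9 CPM in the combination. Ifit3 (34583531 to 34588731) was at 83.5, 50.3 and 89.2 CPM against 67.3, 60.7 and 37.4 CPM. In both, monotherapy replicate 2 and combination replicate 3 were the low libraries of their groups. Their log2 fold changes were -0.56 ± 0.31 and -0.43 ± 0.26 (SE; edgeR adjusted p = 0.758 and 0.808). Ifit3b is a close copy of Ifit3, with 97.4% of the longest Ifit3 transcript aligned to it at 95% identity or more, so how their reads were divided is uncertain. Ifit3b was at 12.3 ± 4.04 and 9.44 ± 1.71 CPM and Ifit2 at 82.9 ± 7.90 and 70.3 ± 15.4 CPM (SD, n = 3 each).

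Of the 5 OAS genes, 3 had estimates below 0, and the other 2 lay above 0 by less than their SE. OAS enzymes make the oligoadenylates that switch on RNase L, an activity that the Oasl1 protein lacks. Oasl2 (chromosome 5, 114896936 to 114912234), an OAS-like enzyme, was at 40.2, 36.7 and 62.7 CPM in monotherapy and 26.8, 33.5 and 31.4 CPM in the combination. Its groups did not overlap, although monotherapy replicate 3 stood well above the other 2, and the log2 fold change was -0.61 ± 0.20 (SE; edgeR adjusted p = 0.371). Its neighbour Oasl1, a translational repressor of Irf7, was at 16.7, 12.2 and 21.5 CPM against 12.4, 13.6 and 12.4 CPM, with -0.39 ± 0.20. Monotherapy replicate 2 was the lowest of all 6 libraries for Oasl1.

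Oas3 and Oas1a had estimates just above 0. Oas3 was at 121, 110 and 172 CPM in monotherapy and 113, 148 and 158 CPM in the combination, so its groups overlapped, with monotherapy replicate 3 the highest. Its log2 fold change was 0.05 ± 0.20 (SE), and that of Oas1a 0.05 ± 0.17. The longest Oas1a transcript aligned over its whole length to Oas1g at 95% identity or more, which leaves its counts uncertain. Oas2 was at 37.2 ± 12.5 and 30.1 ± 12.1 CPM (SD, n = 3 each). Monotherapy replicate 3 was the highest of the 6 libraries for all 5 OAS genes.

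Isg15 (chromosome 4, 156199424 to 156200818), which encodes a ubiquitin-like protein that ligases attach to target proteins, was at 43.4, 19.3 and 39.3 CPM in monotherapy and 28.9, 23.1 and 14.6 CPM in the combination. Monotherapy replicate 2 was lower than 2 of the 3 combination libraries, and the log2 fold change was -0.62 ± 0.32 (SE; edgeR adjusted p = 0.713). Of the longest Isg15 transcript 63.8% aligned to another gene model at 95% identity or more. Herc6, the ISG15 ligase of mice, was at 99.6, 69.5 and 97.4 CPM against 61.8, 87.5 and 79.8 CPM, a log2 fold change of -0.22 ± 0.18, and shares 1269 exon bases with another gene model on its strand. Usp18, the protease that removes ISG15 and damps receptor signalling, was at 51.4 ± 14.7 and 49.7 ± 8.26 CPM (SD, n = 3 each). Trim25, a ubiquitin and ISG15 ligase that activates RIG-I, was at 121 ± 12.6 and 123 ± 17.0 CPM. The log2 fold changes of Usp18, -0.05 ± 0.22, and of Trim25, 0.01 ± 0.15, were smaller than their SE.

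The ADP-ribosyltransferases and their partner DTX3L had 4 estimates below 0 and overlapping groups. Parp9, whose product forms a complex with DTX3L that ubiquitinates histones and viral proteins, was at 218, 160 and 181 CPM in monotherapy and 145, 178 and 124 CPM in the combination. Dtx3l was at 216, 229 and 249 CPM against 170, 229 and 227 CPM. These neighbours on chromosome 16 share 458 exon bases on opposite strands, and as strand use in counting is not stated, reads there cannot be told apart. In both the low library was in the combination group, replicate 3 for Parp9 and replicate 1 for Dtx3l, and the log2 fold changes were -0.32 ± 0.17 and -0.15 ± 0.16 (SE). Parp14, a regulator of STAT signalling, was at 231, 212 and 260 CPM against 140, 215 and 234 CPM, with combination replicate 1 alone below the rest. Parp12 had a log2 fold change of -0.11 ± 0.17.

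Schlafen genes regulate T cell quiescence and translation. Slfn5, which shares 559 exon bases with its antisense gene Slfn5os, was at 136, 112 and 190 CPM in monotherapy and 90.8, 123 and 93.4 CPM in the combination, with a log2 fold change of -0.51 ± 0.21 (SE; edgeR adjusted p = 0.550). Slfn8 was at 225, 179 and 229 CPM against 134, 210 and 184 CPM, at -0.26 ± 0.19. Slfn1, a gene of quiescent T cells, was the most abundant of the 3 per length at a mean of 123 FPKM, with 253, 207 and 238 CPM against 229, 249 and 196 CPM and a log2 fold change of -0.05 ± 0.15. The groups of all 3 overlapped.

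The remaining 4 members centred on 0, with a median of -0.02. Ifi203, a nuclear DNA-binding protein of the IFI200 family, was at 553, 496 and 565 CPM in monotherapy and 432, 557 and 481 CPM in the combination. Of its longest transcript 38.1% aligned to other genes at 95% identity or more, with 20.3% to Mndal. Trim30a, a brake on inflammatory signalling, was at 312, 209 and 246 CPM against 230, 288 and 196 CPM. Their log2 fold changes were -0.13 ± 0.16 and -0.10 ± 0.20 (SE). Phf11b was at 60.3 ± 13.0 and 64.1 ± 21.9 CPM (SD, n = 3 each) and shares 73% of its longest transcript with Phf11a at 95% identity or more. Phf11d, at 1.55 ± 0.412 and 1.62 ± 0.359 CPM, had the lowest level of all members.

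Which members were low in a combination library went with transcript length. Over the 40 genes, Spearman's rho between exonic length and the deviation in log2 CPM was -0.746 in combination replicate 1 and 0.551 in combination replicate 3. It was -0.39, 0.41 and 0.075 in monotherapy replicates 1, 2 and 3, and -0.014 in combination replicate 2. Over all 15142 genes tested the same measure ran from -0.303 (combination replicate 1) to 0.199 (combination replicate 3). The points share their library and its scaling, genes are not independent replicates, and no test was made.

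The 8 members with less than 2000 exonic bases, such as Ifi27l2a, Isg15, Bst2 and Phf11b, had a median deviation of 0.13 in combination replicate 1 and -0.66 in combination replicate 3. The 10 with more than 6000, such as Parp14, Herc6, Ddx60 and Ifih1, had -0.44 and -0.10. In monotherapy replicates 1, 2 and 3 the short members were at 0.34, -0.29 and 0.27 and the long members at 0.18, -0.08 and 0.34, so monotherapy replicate 2 was the low library of its group in both classes. With each library's trend on length removed, an alternative chosen after seeing the data, the median deviations of the 40 genes were 0.28, -0.23 and 0.28 in monotherapy and -0.22, 0.01 and -0.26 in the combination. In that fit 0 members passed in edgeR (background 0.211%), 11 were lower at an unadjusted p under 0.05 (background 4%), and the median log2 fold change was -0.28.

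**Figure D4:**
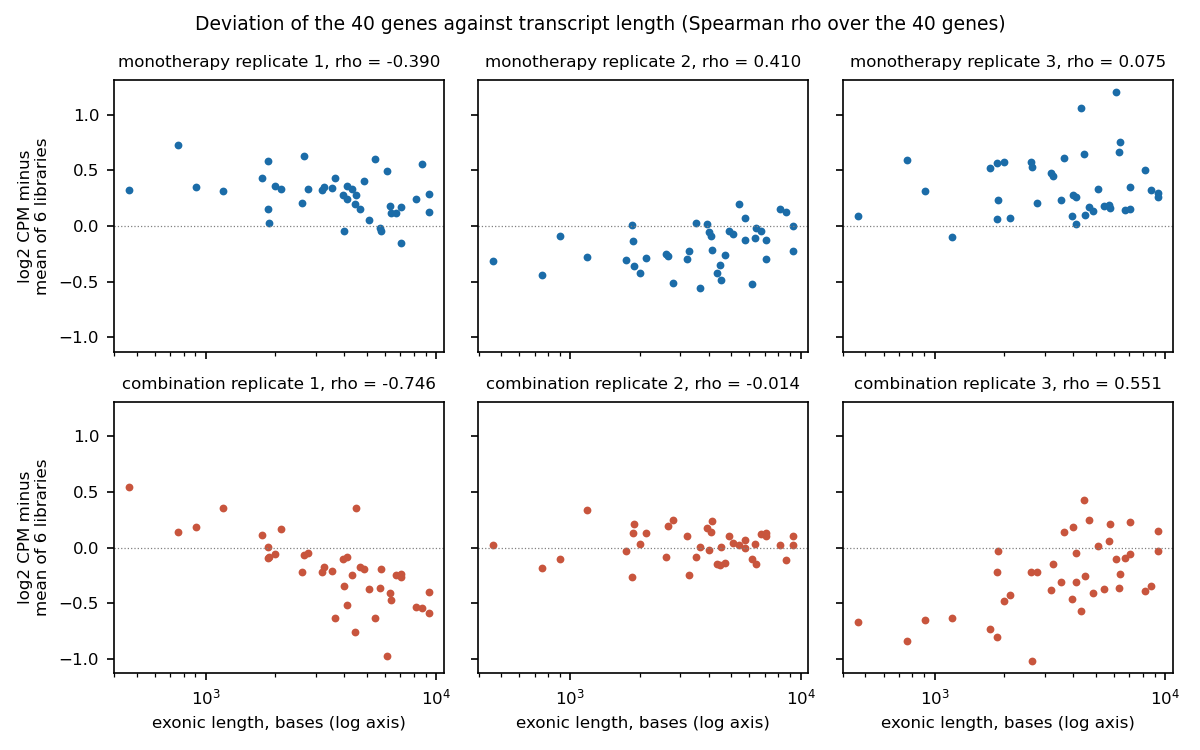
Deviation in log2 CPM from the mean of the 6 libraries (y axis) against exonic length in bases (x axis, log scale) for the 40 genes, 1 panel per library. The points slope down in combination replicate 1 (rho -0.746) and up in combination replicate 3 (rho 0.551), while in monotherapy replicates 1 and 3 nearly all points lie above 0.

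The interferon pathway list held 48 genes: 18 ligands, 4 receptor and kinase genes, 8 transcription factors, 5 brakes, 3 interferon-gamma genes and 10 sensors and adaptors upstream of interferon production. In edgeR 0 of the 30 tested were called lower or higher (background 0.132% and 0.951%). At an unadjusted p under 0.05, 6 were lower and 1 higher (background 3.39% and 4.61%): 3 transcription factors, 2 brakes and 1 upstream sensor were lower, and 1 interferon-gamma gene was higher. The 18 type I interferon genes themselves were nearly silent, with 2 to 9 counts in all per library, and none was tested. The receptor chains Ifnar1 and Ifnar2 were at 148 ± 5.54 and 146 ± 20.8 CPM, and at 81.5 ± 1.62 and 87.3 ± 4.65 CPM (SD, n = 3 each). Of the ISGF3 subunits, Stat2 was at 81.4 ± 15.0 and 67.1 ± 17.2 CPM and Irf9 at 137 ± 10.1 and 135 ± 8.59 CPM, both with overlapping groups.

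Irf1, a transcription factor that both interferon types induce, was at 593, 555 and 511 CPM in monotherapy and 375, 340 and 327 CPM in the combination. Its log2 fold change of -0.67 ± 0.15 (SE) had the smallest p of the pathway list and did not pass in edgeR (adjusted p = 0.0884), though it passed in DESeq2 (adjusted p = 1.939e-04) and without combination replicate 1 (edgeR adjusted p = 0.0474). Over all settings its adjusted p ran from 1.939e-04 to 0.421. Irf7, the factor that amplifies interferon production, was at 126, 111 and 151 CPM against 89.3, 84.9 and 97.4 CPM, at -0.52 ± 0.15 (edgeR adjusted p = 0.226). For Irf1 monotherapy replicate 2 lay with its own group, well above the combination libraries. The feedback inhibitor Socs3 was at 110, 162 and 112 CPM against 87.6, 77.3 and 82.2 CPM, with monotherapy replicate 2 the highest of the 6. Its log2 fold change was -0.63 ± 0.17 (edgeR adjusted p = 0.186; DESeq2 adjusted p = 0.0454; 0.0179 to 0.728 over all settings).

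**Figure D5:**
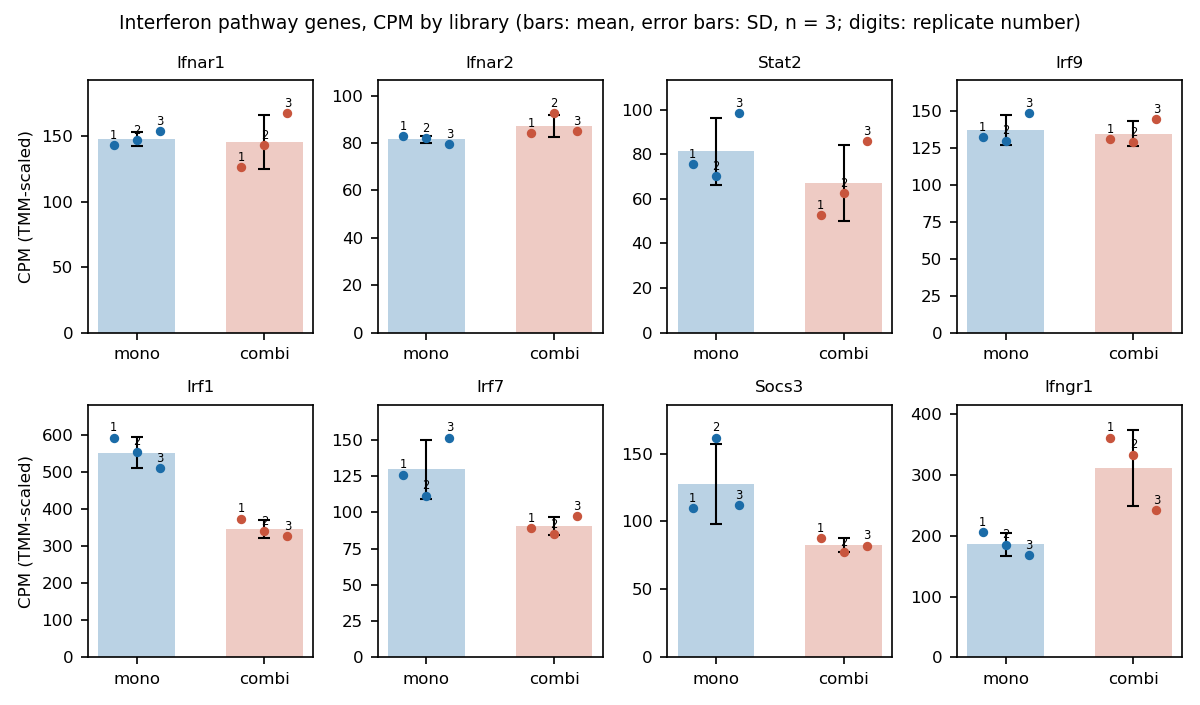
CPM of 8 interferon pathway genes in each library, with bars for the mean, error bars for the SD of 3 libraries and digits for the replicate number. Irf1, Irf7 and Socs3 have separate groups with the combination lower, and Ifnar1, Stat2 and Irf9 overlap. The 3 combination libraries lie above the monotherapy libraries in Ifngr1, the ligand-binding chain of the interferon-gamma receptor, and by a small margin in Ifnar2.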

How the data were processed

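RNA was extracted with Trizol, enriched with oligo(dT) beads and made into libraries with the NEBNext Ultra II kit, per the labels' protocols. The submitters' processing notes name STAR 2.5.2b, featureCounts, Subread 1.5.2 and DESeq2. No source used here gives the settings, strand use, annotation or build. The deposited values are whole-number counts of reads per gene, not normalized. The 6 library files equalled the matching columns of the deposited table, whose other 6 columns were not used. In GENCODE M21 (GRCm38), 91.4% of 48970 shared genes had the same coordinates, as did 38 of the 40 members.

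Counts were fitted in R 4.3.3 with edgeR 4.0.16 (filterByExpr, TMM factors 0.901 to 1.12, quasi-likelihood F-test, no covariate), with DESeq2 1.42.0 and limma 3.58.1 as alternatives. The SE is the log2 fold change divided by the square root of F. Library deviations used log2 CPM with a prior count of 2. Transcripts were aligned with blastn 2.17.0. The design gives 3 mice per group, and the labels number the libraries without tying each to a mouse. Each p-value thus sets the difference between groups against the spread between these libraries, estimated in part from the other genes tested.

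The members, gene lists and tests were chosen with earlier results of these data known. In each role, values by library are given for the 2 members with the smallest p and the one with the highest FPKM, and others are named for comparison. The promoter of Ddx60 was added after its values were seen. The values of 1 pathway gene are not reported here.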

Additional observations from a re-analysis of the deposited data

How the results depend on the processing

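The median log2 fold change of the members stayed below 0 in every setting tried, from -0.17 to -0.41, and 0 members were called higher in any. The number called lower was 0 with other scalings, a stricter count filter, limma-voom, the length trend removed, Ifit3 and Ifit3b summed, and each library left out (range 0 to 0). It was 8 without a count filter (background 0.347%) and 2 in DESeq2 (background 0.492%). Without combination replicates 2 and 3, which held melanocyte transcripts, it was 5 (Ifih1, Samd9l, Ddx60, Slfn8 and Parp14), but that arm is 1 library, assumed to vary like the others, and 3.77% of all genes were lower. Members lower at an unadjusted p under 0.05 numbered 17 without a count filter, 16 without combination replicates 2 and 3, and 4 to 17 over the left-out libraries. Over all genes the lower calls were 113 without a filter, 73 in DESeq2, 32 with the length trend removed, 628 without combination replicates 2 and 3, and 2 to 49 over the left-out libraries. The higher calls were 340, 284, 199, 834 and 32 to 233. The causes were not tested.

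With the replicate number as a block, 2 members (Ddx60 and Isg20) were called lower (background 0.376%), and over all genes 57 were lower and 231 higher. Deviations from the group means of same-numbered libraries correlated at 0.145, -0.055 and 0.279. For replicates 1 and 3 this was the highest correlation of each library with the other group. Monotherapy replicate 2 correlated best with combination replicate 1 (0.076), and combination replicate 2 with monotherapy replicate 1 (0.119). These values do not settle whether the numbers pair the libraries.

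Precision is limited by 3 libraries per group and the spread between them, and by low counts for Phf11d and Ifi44, which the stricter filter removed.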

Other observations

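Genes that sense nucleic acid upstream of interferon production, which are not themselves the members, had overlapping groups for 9 of 10 genes. The exception was Ticam1, the adaptor of TLR3, at 17.4 ± 0.519 and 13.9 ± 1.65 CPM (SD, n = 3 each; log2 fold change -0.32 ± 0.14, SE; edgeR adjusted p = 0.631). Of all genes tested, 7.54% had separate groups with the combination lower and 7.17% with it higher. Tmem173, which encodes STING, was at 147 ± 23.5 and 144 ± 16.2 CPM (SD, n = 3 each). Mavs, the adaptor of RIG-I and MDA5, was at 26.4 ± 1.34 and 25.8 ± 2.09 CPM, and Tbk1, the kinase that phosphorylates IRF3, at 85.9 ± 9.21 and 85.2 ± 1.62 CPM. In edgeR 0 of the 10 genes of this list passed (background 0.132% lower and 0.951% higher). At an unadjusted p under 0.05, 1 gene, Tlr9, was lower (background 3.39%), at a level of at most 1.40 CPM in each library.

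Both receptor genes of interferon-gamma had groups that did not overlap, and neither passed in edgeR. Of the 30 tested genes of the pathway list, 6 had separate groups with the combination lower and 2 with it higher. Over all genes tested the shares were 7.54% and 7.17%. Ifng was at 9.99 ± 1.51 and 9.99 ± 2.48 CPM (SD, n = 3 each). Ifngr1, the ligand-binding chain, was at 206, 186 and 168 CPM in monotherapy and 362, 334 and 242 CPM in the combination, with separate groups and a log2 fold change of 0.75 ± 0.18 (SE; edgeR adjusted p = 0.118). It passed as higher in DESeq2 (adjusted p = 4.206e-03) and without combination replicate 3 (edgeR adjusted p = 5.721e-03), and over all settings its adjusted p ran from 3.382e-03 to 0.550. Ifngr2, the signalling chain, was at 29.4 ± 1.60 and 24.3 ± 1.77 CPM, also with separate groups and in the other direction (-0.28 ± 0.13).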
